A study of Homo sapiens with 6 samples.

Results

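The genes described here encode the kinases and sensors that signal DNA breaks. The 10 genes are MRE11, RAD50 and NBN, ATM, ATR and PRKDC, MDC1 and TP53BP1, and CHEK1 and CHEK2. They were chosen by name, with earlier results of these data known, and all were found, 10 of the 60605 genes counted. RNA was sequenced from HuCCT-1, an established human cell line derived from bile duct cancer (cholangiocarcinoma). Cells of 1 group received JNJ-64619178 at 6 nM, which inhibits PRMT5, an arginine methyltransferase, and those of the other received an equal volume of the solvent DMSO, both for 4 days. Each group had 3 libraries of polyadenylated RNA from this single line, with total counts of 28133746 to 30691914 with DMSO and 23931991 to 28224911 with the inhibitor. No label states that replicates came from separate cultures, so p-values measure the spread between these libraries, which may be technical.

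A broken DNA end is first held by the complex of MRE11, RAD50 and NBN, which recruits and activates the kinase ATM. DNA-PKcs, encoded by PRKDC, is recruited to ends by the Ku proteins, and ATR is recruited to single-stranded DNA coated with the protein RPA. These kinases phosphorylate the histone variant H2AX, the adaptors MDC1 and 53BP1 gather on the modified chromatin, and the effector kinases CHK1 and CHK2 slow the cell cycle. PRMT5 places symmetric methyl marks on arginine in histones, splicing proteins and other proteins, and the study compared gene expression with and without its inhibition.

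Of the 10 genes, 4 rose with the inhibitor, namely ATM, ATR, MRE11 and TP53BP1. No gene of the 10 was called lower by edgeR's quasi-likelihood test, and 0 were lower at an unadjusted p under 0.05. The threshold was a Benjamini-Hochberg adjusted p under 0.05 over all 17371 genes tested, of which 37.1% passed, 20% higher and 17.1% lower. All 10 passed the filter on low counts. Their median log2 fold change, inhibitor over DMSO, was 0.16, against 0.0014 over all genes. In the 4 that rose, all inhibitor libraries lay above all DMSO libraries, and in the other 6 the groups overlapped. Of all genes tested, 47% had groups that did not overlap, 24.7% with the inhibitor above and 22.2% with it below. Of all calls 53.9% were higher with TMM scaling and 40.6% with upper-quartile scaling, and these same 4 genes were called higher with both. Inhibitor replicate 2 was the lowest of its group in 6 of the 10 genes, and inhibitor replicate 1 was the highest in 6. Without inhibitor replicate 2 the number of genes called higher was 6, and with each other library left out it was 4.

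**Figure D1:**
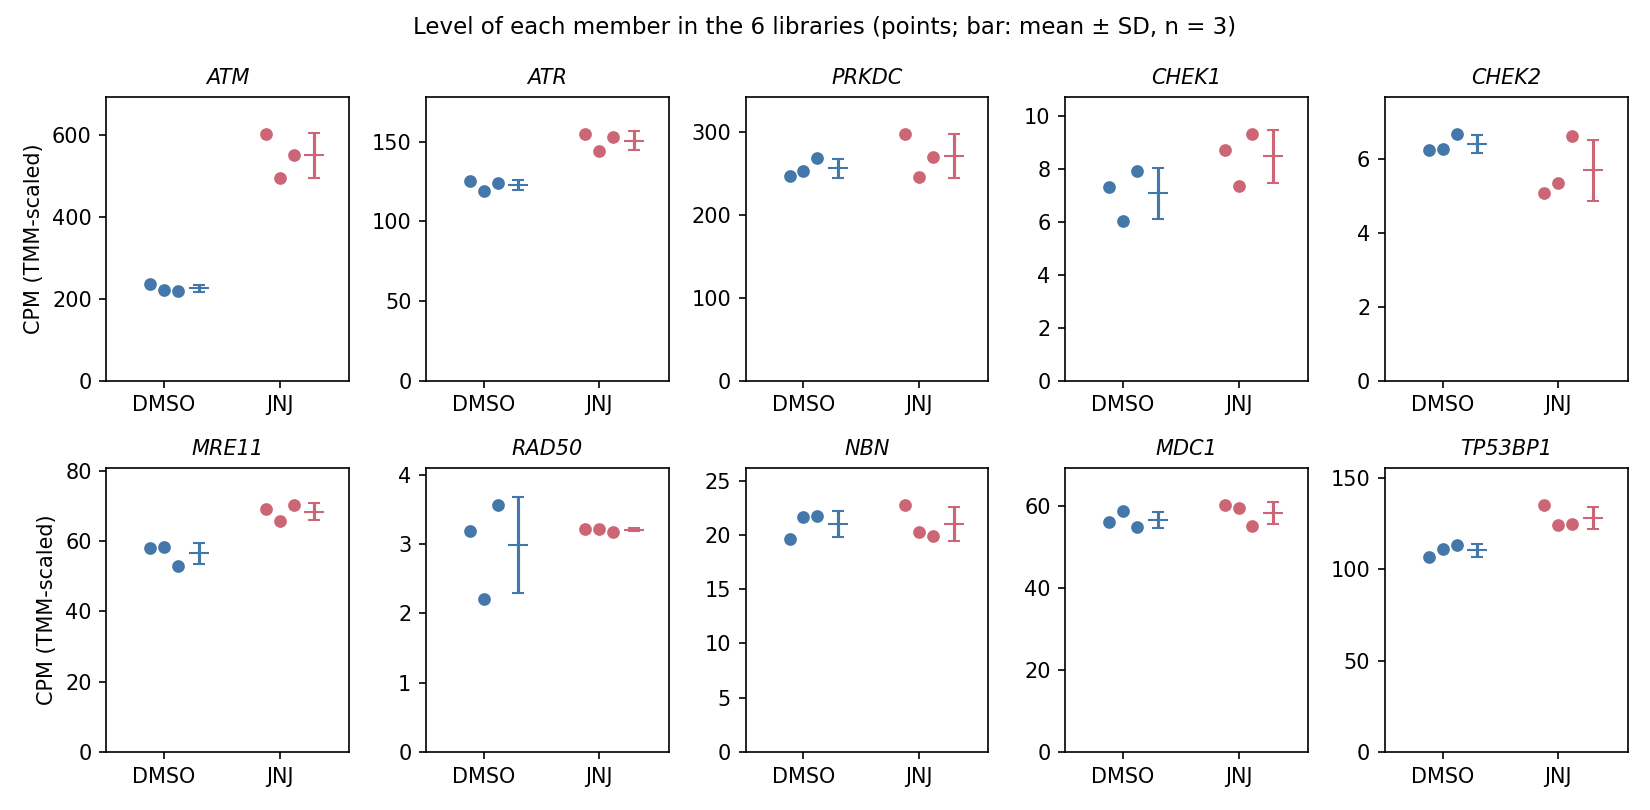
Level of each gene in CPM (the count scaled to library size, with TMM factors) in the 3 DMSO and 3 inhibitor (JNJ) libraries, 1 point a library, with the mean and SD beside the points and each axis starting at 0. The groups are apart in ATM, ATR, MRE11 and TP53BP1 and overlap in the other 6 genes.

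The start regions of ATR and TP53BP1 are shown because both genes rose and their upstream windows hold a stretch outside every exon of GENCODE release 29. Sequences are from RefSeq on GRCh38.p14, 5′ to 3′ on the strand of the gene, and capitals mark matches on either strand to the GC box, GGGCGG. Both strands were also searched for the CCAAT box by those letters, for an ETS motif as CCGGAAG, for an E2F motif as TTCCCGC and for the NRF1 motif. The ATR stretch is chr3:142578827-142578983 (157 bases, minus strand) and the TP53BP1 stretch is chr15:43510729-43510890 (162 bases, minus strand).
ATR: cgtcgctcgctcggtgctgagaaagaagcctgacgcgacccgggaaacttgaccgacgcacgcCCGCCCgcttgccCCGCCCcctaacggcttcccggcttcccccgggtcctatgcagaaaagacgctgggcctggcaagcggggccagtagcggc
TP53BP1: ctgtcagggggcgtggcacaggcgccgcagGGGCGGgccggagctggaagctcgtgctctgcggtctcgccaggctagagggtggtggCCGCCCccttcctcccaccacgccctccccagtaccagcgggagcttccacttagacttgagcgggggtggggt
Each stretch held 2 GC boxes, and the letters of the other motifs are not in these stretches. The full window of 250 bases also held the ETS letters, 2 matches for ATR and 1 for TP53BP1. That of TP53BP1 held 1 CCAAT box as well. Among 35116 upstream windows of 250 bases in the same table, which are longer than both stretches, 42.6% held a GC box, 32.0% a CCAAT box, 8.52% the ETS letters, 5.52% the E2F letters and 5.07% the NRF1 motif. A match describes letters only and shows no binding.

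Positions are those of GENCODE release 29 on GRCh38, where all 10 are protein-coding genes. ATM (ENSG00000149311, plus strand, 108222484 to 108369102), CHEK1 (ENSG00000149554, plus strand, 125625136 to 125676255) and MRE11 (ENSG00000020922, minus strand, 94415578 to 94493908) lie on chromosome 11. PRKDC (ENSG00000253729, 47773108 to 47960183) and NBN (ENSG00000104320, 89933336 to 90003228) lie on the minus strand of chromosome 8. ATR (ENSG00000175054, 142449235 to 142578826, minus strand) lies on chromosome 3, RAD50 (ENSG00000113522, 132556019 to 132646344, plus strand) on chromosome 5 and MDC1 (ENSG00000137337, 30699807 to 30717889, minus strand) on chromosome 6. TP53BP1 (ENSG00000067369, 43403061 to 43510728) is on the minus strand of chromosome 15 and CHEK2 (ENSG00000183765, 28687743 to 28742422) on that of chromosome 22.

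Of the sensor complex, 1 of 3 subunits rose. MRE11, its nuclease, had 58.0, 58.4 and 53.0 CPM with DMSO and 69.0, 65.8 and 70.3 CPM with the inhibitor. The lowest inhibitor library stood above the highest DMSO library. MRE11 rose from a mean of 56.5 ± 3.04 to 68.4 ± 2.34 CPM (SD, n = 3 each), a log2 fold change of 0.28 (SE 0.05, edgeR adjusted p = 0.000202). NBN, the subunit that binds ATM, had 19.6, 21.7 and 21.7 CPM with DMSO and 22.8, 20.3 and 19.9 CPM with the inhibitor. These values overlapped, with a log2 fold change of -0.0018 and a 95% interval from -0.16 to 0.15 (adjusted p = 0.989). RAD50, the ATPase that tethers DNA ends, had 3.18, 2.21 and 3.56 CPM with DMSO and 3.21, 3.22 and 3.18 CPM with the inhibitor. It was counted 61 to 111 times a library, and its interval was wide, from -0.28 to 0.47 (adjusted p = 0.723).

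The low count of RAD50 has a limit in the annotation. In GENCODE release 29, 79.7% of its 9771 exonic bases lie in exons of a second gene on the same strand, ENSG00000283782. That gene had 0 reads in all 6 libraries. Of the other 9 genes only CHEK1 shares any exonic bases on its own strand, 1.22%. Across protein-coding genes, the median level was 8.12 CPM where up to 10% of exonic bases were shared in this way (17968 genes), and 0.141 CPM where over 50% and up to 90% were (422 genes). Where over 90% were shared (447 genes), 78.5% of the genes were at 0. No source used here says how reads falling in 2 genes were treated, and their part in the RAD50 level was not tested. The RAD50 values are therefore a count of the reads assigned to it, and not its level relative to MRE11 and NBN.

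ATM, the kinase activated at double-strand breaks, had the largest change of the 10. Its level was 235, 222 and 219.6 CPM with DMSO and 603, 494 and 552 CPM with the inhibitor, so each inhibitor library held more than each DMSO library by a wide gap. The mean rose from 226 ± 8.45 to 549.8 ± 54.6 CPM, 2.44-fold (log2 fold change 1.28, SE 0.06, edgeR adjusted p = 2.02e-14). A log2 fold change at least as high was seen in 179 of the 17371 genes, ATM included. In bulk RNA, more transcripts per cell and a larger share of cells with the transcript cannot be told apart.

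ATR, the kinase of stalled forks and resected ends, had 125, 119 and 124 CPM with DMSO and 155, 144 and 153 CPM with the inhibitor, with no overlap. ATR rose by 0.29 on the log2 scale (SE 0.05, edgeR adjusted p = 1.82e-05), and its 95% interval, 0.20 to 0.39, lay below that of ATM, 1.17 to 1.40. PRKDC, which encodes the kinase of end joining, had 246, 252 and 269 CPM with DMSO and 298, 246 and 270.0 CPM with the inhibitor. Here the groups overlapped, and the log2 fold change of 0.083 had a 95% interval from -0.032 to 0.20 (adjusted p = 0.261). PRKDC passed when inhibitor replicate 2 was left out (log2 fold change 0.15, adjusted p = 0.0203), while without inhibitor replicate 1 its log2 fold change was 0.011 (adjusted p = 0.90) and without DMSO replicate 1 it was 0.050.

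Of the adaptors, 1 of 2 rose. TP53BP1, which encodes 53BP1, the adaptor that shields ends from resection, had 107, 111 and 113 CPM with DMSO and 135, 124 and 125 CPM with the inhibitor. It rose with no overlap, by 0.22 on the log2 scale (SE 0.05, edgeR adjusted p = 0.000837). MDC1, which binds phosphorylated H2AX, had 56.1, 58.7 and 54.8 CPM with DMSO and 60.3, 59.5 and 55.2 CPM with the inhibitor. The groups overlapped, and the log2 fold change of 0.046 had a 95% interval from -0.063 to 0.16 (adjusted p = 0.532). With upper-quartile scaling the sign of the MDC1 change turned (-0.013).

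The effector kinases were measured at low counts, 125 to 246 a library. CHEK1, which encodes the main target of ATR, had 7.30, 6.01 and 7.90 CPM with DMSO and 8.70, 7.35 and 9.32 CPM with the inhibitor. The log2 fold change was 0.25 with a 95% interval from -0.0044 to 0.50 (edgeR adjusted p = 0.117), and without inhibitor replicate 2 it passed (0.35, adjusted p = 0.0392). Without DMSO replicate 2 the CHEK1 value was 0.14 (adjusted p = 0.45). CHEK2, which encodes the main target of ATM, had 6.23, 6.27 and 6.68 CPM with DMSO and 5.08, 5.35 and 6.61 CPM with the inhibitor. Its log2 fold change was -0.17 with a 95% interval from -0.44 to 0.091 (adjusted p = 0.312), and it was -0.29 without inhibitor replicate 3 and -0.10 without inhibitor replicate 1. CHEK2 has pseudogene copies elsewhere in the genome, and the 7 rows with that name held 2 reads in all. No source used here says how reads matching several places were treated, and their part in the CHEK2 level was not tested. Of 18 proliferation genes 7 were lower, 1 was higher and 10 did not pass (median log2 fold change -0.14), against 17.1% lower and 20% higher over all genes. MKI67, a marker of cycling cells, fell from 10.9 ± 1.09 to 6.13 ± 1.20 CPM, and the higher gene was MCM4, whose call was lost in 8 of the 14 settings tried. Their summed level was 285.6 to 289.6 CPM with DMSO and 244.1 to 250.05 CPM with the inhibitor. Much of that drop came from E2F7, the most abundant of them, which fell from 97.1 ± 5.60 to 72.4 ± 2.49 CPM. CHEK1 varies with the cell cycle, and the part of the shift in proliferation genes in the CHEK1 and CHEK2 values was not tested.

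**Figure D2:**
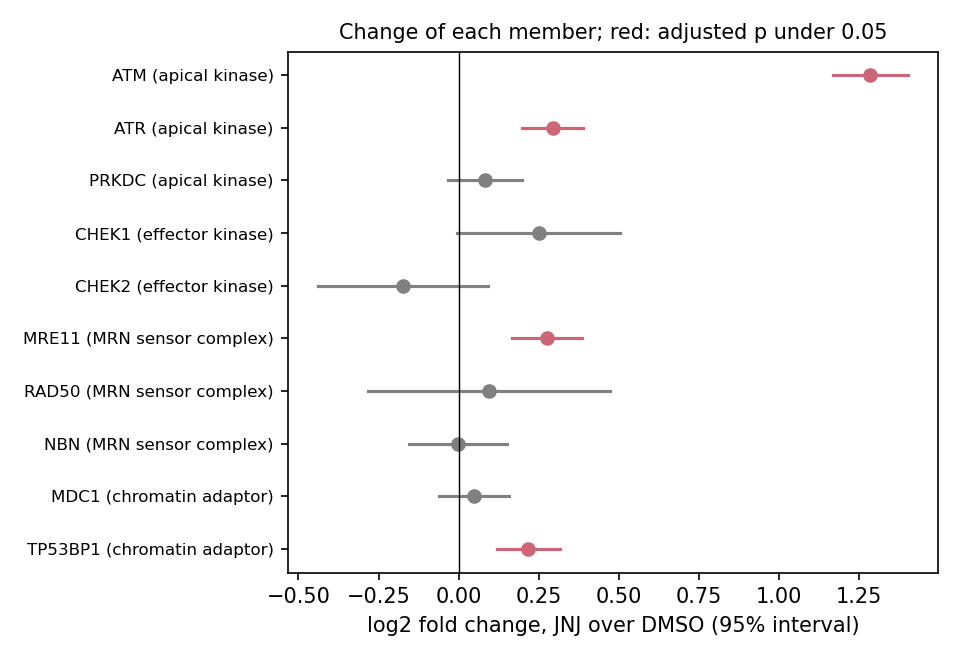
Log2 fold change of each gene, inhibitor over DMSO, with its 95% interval from the edgeR fit over all genes. The 4 red genes passed an adjusted p of 0.05, with ATM at 1.28 and the other 3 between 0.22 and 0.29.

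Per length, ATM moved ahead of PRKDC and ATR. Levels are given here as CPM per kilobase of all annotated exons, which understates genes with many exons of rare transcripts. With DMSO, PRKDC was highest at 16.6 ± 0.762, followed by ATR at 9.84 ± 0.26, ATM at 9.41 ± 0.352 and TP53BP1 at 8.48 ± 0.255 CPM per kilobase. ATR and ATM overlapped there. With the inhibitor ATM stood first at 22.9 ± 2.28, above PRKDC at 17.6 ± 1.70 CPM per kilobase, with no overlap between their libraries. MRE11 (7.34 ± 0.395) and MDC1 (7.01 ± 0.248) overlapped with DMSO, and with the inhibitor MRE11 (8.89 ± 0.305) lay above MDC1 (7.23 ± 0.343) in every library. NBN was at 3.41 ± 0.195 and 3.41 ± 0.255 CPM per kilobase with DMSO and with the inhibitor. CHEK2 (1.42 ± 0.0555) was above CHEK1 (1.08 ± 0.147) with DMSO, and with the inhibitor CHEK2 (1.26 ± 0.181) and CHEK1 (1.29 ± 0.154) overlapped. The CHEK2 values carry the limit on pseudogene copies given above.

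Ratios of counts within a library do not depend on how libraries are scaled, and 10 pairs were compared. With 3 libraries against 3, the exact two-sided permutation test cannot give a p below 0.1, and the pairs that reached it had an adjusted p of 0.143 over the 10 pairs, so no ratio could pass. The log2 ratio of ATM to ATR was 0.91, 0.89 and 0.82 with DMSO and 1.96, 1.78 and 1.85 with the inhibitor. The inhibitor libraries all stood above the DMSO libraries, by 0.99 on the log2 scale or 1.98-fold. ATM was 2.30-fold higher against PRKDC and 2.75-fold higher against CHEK2 by the same measure, in each case without overlap.

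Smaller shifts were seen in the other pairs. The log2 ratio of NBN to MRE11, its partner, was -1.43 ± 0.14 with DMSO and -1.71 ± 0.112 with the inhibitor, with no overlap between the groups. The log2 ratio of MDC1 to TP53BP1 differed by -0.17, again without overlap. ATR to PRKDC was higher by 0.21 and CHEK1 to CHEK2 by 0.44, both without overlap, and all of these pairs had an exact p of 0.1. The ratios of ATR to CHEK1 (difference 0.033, exact permutation p = 0.8), MRE11 to RAD50 (difference 0.15, p = 0.7) and NBN to RAD50 (difference -0.13, p = 1.0) overlapped. The last 2 carry the limit on RAD50 given above.

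**Figure D3:**
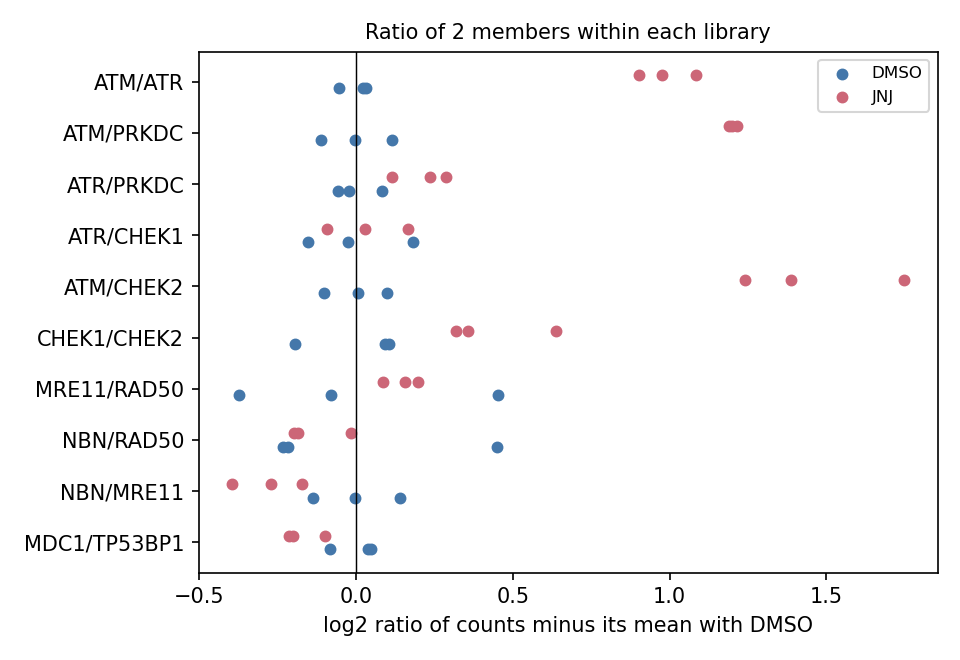
Log2 ratio of the counts of 2 genes in each library, less the mean of that ratio with DMSO, for 10 pairs. The ratios of ATM to ATR, PRKDC and CHEK2 lie furthest from 0, with mean shifts of 0.99, 1.20 and 1.46, and 3 pairs (ATR/CHEK1, MRE11/RAD50, NBN/RAD50) overlap between the groups.

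Several of these genes share a start region with a neighbour on the other strand. In that annotation 6 of the 10 have a gene that starts within 1000 bases on the opposite strand, and 4 of those neighbours passed the filter on low counts. ATM starts 158 bases from NPAT, a coactivator of histone genes. NPAT had 32.2, 31.2 and 35.7 CPM with DMSO and 34.4, 31.3 and 31.4 CPM with the inhibitor, which overlap (log2 fold change -0.030, 95% interval -0.16 to 0.10, edgeR adjusted p = 0.758). So ATM rose and its neighbour did not pass, and the interval of NPAT ends far below the lower bound for ATM, 1.17.

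MRE11 starts 279 bases from ANKRD49, a gene for an ankyrin repeat protein. ANKRD49 rose from 25.0 ± 2.44 to 41.7 ± 0.767 CPM, by 0.74 on the log2 scale (SE 0.07, edgeR adjusted p = 2.87e-09). The pair overlap, and no source used here gives the strand setting of the counts. Of the exonic bases of MRE11, 2.93% lie in exons of other genes on either strand.

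PRKDC starts 2 bases from MCM4, a subunit of the replicative helicase. MCM4 was called higher by 0.15 on the log2 scale (SE 0.06, edgeR adjusted p = 0.0371), a call lost under 8 of the 14 settings tried (adjusted p 0.0338 to 0.201). CHEK2 starts 391 bases from HSCB, a co-chaperone of iron-sulfur cluster assembly, which did not pass (0.33, adjusted p = 0.0616). The neighbours MAP1A of TP53BP1 (41 reads in all) and IL5 of RAD50 (3 reads in all) were too low to test.

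**Figure D4:**
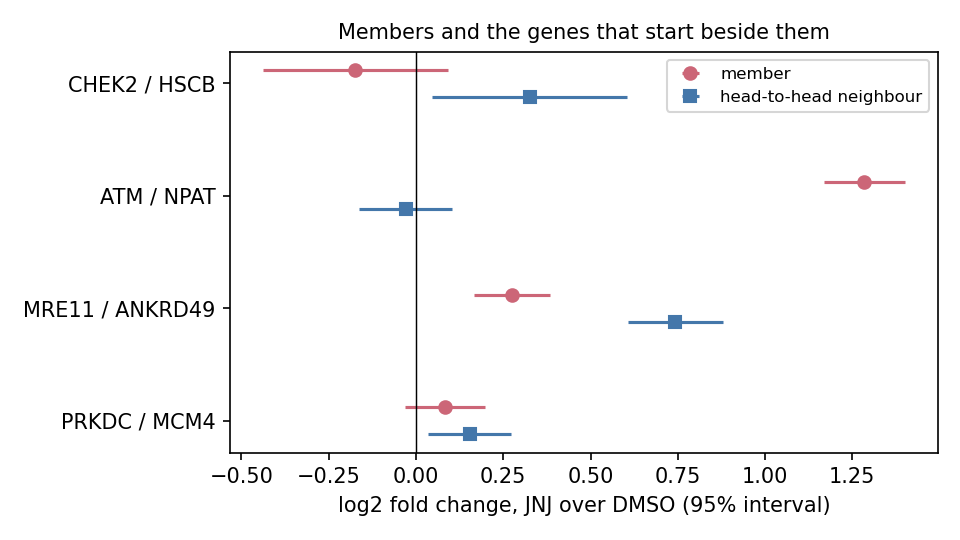
Log2 fold change, inhibitor over DMSO, with its 95% interval, of 4 genes (red circles) and the gene that starts beside each on the other strand (blue squares). ATM (1.28) and NPAT (-0.030) are far apart, and MRE11 (0.28) and ANKRD49 (0.74) are both above 0.

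Some exons are shared with genes on the other strand, and the part of this in the counts was not tested. In TP53BP1, 28.7% of the exonic bases lie in exons of TUBGCP4 or another gene on the opposite strand, and TUBGCP4, a tubulin complex gene, rose by 0.15 on the log2 scale (adjusted p = 0.0396). In ATR 16.4% lie over the pseudogene EIF2AK1P1, which had 15 reads in all. In ATM 359 of 23972 exonic bases lie in exons of other genes, and the genes that overlap it on the other strand are NPAT, with 742 to 1112 reads a library, and C11orf65, with 150 reads in all. ATM had at least 6125 reads in each library. In PRKDC and NBN no exonic base is shared. DECR1, which overlaps the NBN locus on the other strand, fell by 0.29 on the log2 scale (edgeR adjusted p = 0.00193).

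Genes that work with these kinases were read from 5 lists of the pathway, also chosen with earlier results known. Of their 65 tested genes 20 were higher and 10 lower, against 20% and 17.1% of all genes, and the median log2 fold change was 0.06.

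The partners and activators of the apical kinases held the most higher calls, 8 of 17, with 1 lower and a median of 0.21. ETAA1, an activator of ATR at RPA-coated DNA, went up from 20.4 ± 0.459 to 33.8 ± 2.24 CPM, by 0.72 on the log2 scale (SE 0.07, edgeR adjusted p = 5.11e-09). TOPBP1, the other activator of ATR, rose from 35.6 ± 1.11 to 53.4 ± 2.80 CPM, by 0.58 on the log2 scale. RAD9A (0.37) and HUS1 (0.31), subunits of the clamp that brings TOPBP1 to ATR, rose too, and the third subunit RAD1 did not pass (0.011, adjusted p = 0.931). RPA2 (0.51), a subunit of RPA, and TIMELESS (0.36), of the fork protection complex, rose as well. The other higher genes, named after their values were seen, were RAD17 (0.21), which loads the clamp, and ATMIN (0.21), a cofactor of ATM. ATMIN was lost without DMSO replicate 1 (adjusted p up to 0.0695). The Ku genes XRCC5 (-0.049) and XRCC6 (0.032), partners of DNA-PKcs, did not pass. The single lower gene, named after its value was seen, was KAT5, an acetyltransferase that activates ATM (-0.17, adjusted p = 0.0195). Its call was lost without DMSO replicate 2 or inhibitor replicate 3, with adjusted p up to 0.0908.

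Among related kinases and the complex that stabilizes them, 3 of 9 were higher and 1 lower. PIH1D1, a subunit of the R2TP chaperone complex, went up from 55.2 ± 1.01 to 111 ± 9.17 CPM (log2 difference 1.01, SE 0.06, edgeR adjusted p = 8.42e-13). TELO2 (0.26), which binds newly made kinases of this family, rose, and its partner TTI1 fell (-0.36, adjusted p = 9.15e-05). TTI2, of the same complex, did not pass (0.0029). Of the other kinases of the family, TRRAP (0.25), which lacks kinase activity, rose, and MTOR (0.050) and SMG1 (0.063) did not pass.

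Of the chromatin adaptors at breaks, 6 of 18 were higher and 4 lower. PAXIP1, which binds 53BP1, had 19.0 ± 0.846 CPM with DMSO and rose to 29.3 ± 4.39 CPM (log2 difference 0.62, SE 0.08, edgeR adjusted p = 2.24e-06). RIF1, the other main partner of 53BP1, rose by 0.30, HERC2, a ligase that acts with RNF8, by 0.25 and L3MBTL2 by 0.21 on the log2 scale. BRCC3, a deubiquitinase of the BRCA1-A complex, fell (-0.24, adjusted p = 0.00694), and RNF8, the ligase recruited by MDC1, fell (-0.28, adjusted p = 0.0302). The other 4 calls, named after their values were seen, were UIMC1 (0.17) and SHLD2 (0.17), higher, and BABAM2 (-0.20) and MAD2L2 (-0.22), lower, each lost in 6 to 11 of the 14 settings tried. L3MBTL2 was lost in 2 of them, RNF8 in 4, and BRCC3 without inhibitor replicate 3 (adjusted p = 0.0577). H2AX itself did not pass (-0.21, adjusted p = 0.0555). With DESeq2 1 gene of this list was lower, with library-total scaling 2 were lower, and with upper-quartile scaling 3 were higher. Leaving out DMSO replicate 1, DMSO replicate 2 or inhibitor replicate 3 left 1 lower, leaving out inhibitor replicate 1 left 2 lower, and without DMSO replicate 2 only 3 were higher.

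In the list of end resection 1 of 7 was higher and 1 lower. DNA2, a nuclease of long resection, rose to 17.8 ± 0.929 CPM from 12.3 ± 0.458 CPM (log2 difference 0.54, edgeR adjusted p = 9.02e-06). DYNLL1, which restrains MRE11, fell from 72.4 ± 1.69 to 61.3 ± 1.78 CPM. Of the genes that act after the checkpoint kinases, 2 of 14 tested were higher and 3 lower, against 20% and 17.1% of all genes. Their median log2 fold change was -0.15. In 7 of the 14 all inhibitor libraries lay below all DMSO libraries and in 2 above, against 22.2% and 24.7% of all genes. CDKN1A, the CDK inhibitor induced by p53, rose by 0.22 and MDM2, the ligase of p53, by 0.24 on the log2 scale. CCNA2, a cyclin, fell (-0.53, adjusted p = 0.00219), as did CDC25B (-0.13, adjusted p = 0.0261), a phosphatase that activates CDKs. The CDC25B call was lost with library-total scaling and without DMSO replicate 2 or inhibitor replicate 2 (adjusted p up to 0.0862). PLK1, a mitotic kinase, was also called lower (-0.33, adjusted p = 0.0449), a call lost under 7 of the 14 settings tried (adjusted p 0.0179 to 0.295). Its log2 fold change stayed below 0 in all 14, from -0.42 to -0.19. Without inhibitor replicate 2 only 1 gene of this list was lower.

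**Figure D5:**
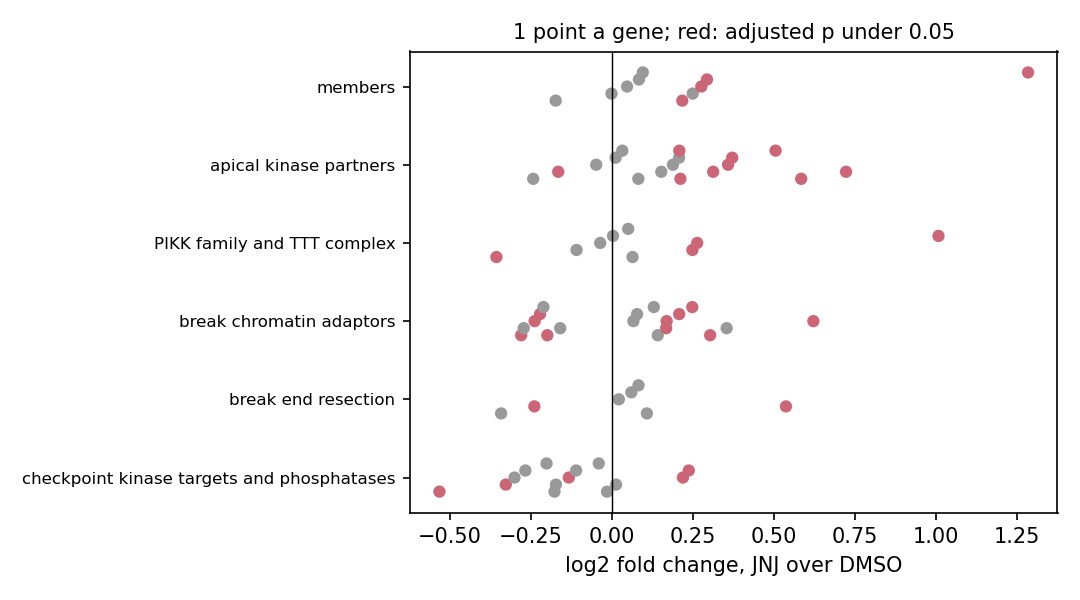
Log2 fold change, inhibitor over DMSO, of the 10 genes (members) and of the tested genes of 5 pathway lists, 1 point a gene, red where the adjusted p was under 0.05. ATM at 1.28 and PIH1D1 at 1.01 are the furthest to the right.

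All 8 markers of biliary epithelium were detected, 4 of them (50%) lower and 1 (12.5%) higher with the inhibitor against 17.1% and 20% of all genes, with KRT7 at 3646 ± 100.2 CPM with DMSO. Of the defining genes of other cells, summed levels were at most 3.602 CPM for leukocytes, 1.67 CPM for fibroblasts and 1.33 CPM for endothelium. The leukocyte sum was carried by CD14, a monocyte gene, which rose from 2.35 ± 0.468 to 3.40 ± 0.153 CPM (log2 fold change 0.52, edgeR adjusted p = 0.0266). The hepatocyte markers were carried by SERPINA1 (336 to 388 CPM), while ALB, APOA1, TTR and CYP3A4 did not pass the filter on low counts. TTR was at 0 in every library. Any part of these shifts in the values of the 10 genes was not tested.

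The genes whose values ran most like those of ATM over the 6 libraries were CAPRIN2, CHD7, DTX3L, POLI and CGGBP1, with a Pearson correlation of log2 CPM of at least 0.998. These were sought among 5549 genes, and the 6 libraries fall into 2 groups, so any gene that rose in all 3 inhibitor libraries correlates highly. Their own log2 fold changes ran from 0.39 to 1.16. For NBN, the gene with the smallest change, the closest were APLP2, POM121C, MTHFD1L, ZNF148 and KIF1C (0.958 to 0.985).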

How the data were processed

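The deposited table holds unnormalized counts for every gene in 6 libraries. The submitters' processing notes list STAR 2.7.9a, FastQC 0.11.8, limma, edgeR and featureCounts 1.6.0 without roles. The notes name the mouse build GRCm39, while the rows carry human Ensembl identifiers. The strand setting and the treatment of reads in several genes are not given. Of 60649 rows, 44 repeated an identifier with a total count of 0 and were dropped, and 60463 of 60605 genes matched a symbol.

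Genes were kept with edgeR 4.0.16 filterByExpr (minimum count 10, minimum total count 15), scaled by TMM and compared with glmQLFit and glmQLFTest on the group alone, with Benjamini-Hochberg adjustment over 17371 genes at 0.05. Standard errors are the log2 fold change divided by the square root of F, and intervals are at 95%. Ratios within a library used counts plus 0.5 and an exact two-sided permutation test. Exonic lengths, overlaps and neighbours were read from GENCODE 29 (GRCh38). The counts may rest on another annotation. The script was tested on simulated counts. Alternatives were DESeq2 1.42.0, limma-voom 3.58.1, RLE, upper-quartile and library-total scaling, 2 other filters, the replicate number as a block and each library left out in turn, and for the ratios an added count of 5.

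The genes and lists were chosen with earlier results of these data known. All 10 genes are named, as are all neighbours with a shared start. In each pathway list called genes were named by smallest p, at most 6, with uncalled partners and the further calls added after their values were seen. Replicate numbers were not taken as pairs in the main fit, and no label states a pairing. The correlation of deviations from the group means was -0.02, -0.01 and 0.002 for the same numbers. For different numbers it ran from -0.032 to 0.046. No shared replicate effect was seen, which cannot show that the samples were unpaired. R 4.3.3 and Python 3.11.15 were used. Within groups, chi-square per degree of freedom between replicates was 2.69 to 9.08, so none is a duplicate.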

Additional observations from a re-analysis of the deposited data

How the results depend on the processing

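ATM, ATR, MRE11 and TP53BP1 were called higher in all 14 alternatives, with log2 fold changes of 1.21 to 1.36, 0.23 to 0.32, 0.22 to 0.30 and 0.16 to 0.24. With the replicate number as a block 4 genes of the 10 were higher, and 3311 of all genes were higher and 2821 lower. In the 5 pathway lists 6 genes were lower by DESeq2, against 10, and 5 to 9 when 1 library was left out. Of the neighbours 1 was higher by DESeq2, with upper-quartile scaling, with low counts kept and with the replicate block, against 2, and 1 to 2 with 1 library left out. The cause was not tested. The log2 fold change of NBN turned with library-total scaling (0.011) and ran from -0.063 to 0.034 with 1 library left out, turning without DMSO replicate 2 or 3 or inhibitor replicate 2 or 3. The log2 fold change of RAD50 ran from -0.082 to 0.23 in this way, turning without DMSO replicate 2, and the log2 fold change of NPAT from -0.076 to 0.020, turning without DMSO replicate 3. The log2 fold change of MDC1 was -0.013 with upper-quartile scaling. The group difference in log2 ratio, inhibitor less DMSO, was also read with 1 library left out. It ran from -0.043 to 0.12 for ATR/CHEK1, from -0.040 to 0.37 for MRE11/RAD50 and from -0.25 to 0.092 for NBN/RAD50. The first turned without DMSO replicate 3 or inhibitor replicate 2, the second without DMSO replicate 3 and the last without DMSO replicate 2. RAD50, CHEK1 and CHEK2 had the lowest counts of the 10 genes, 61 to 246 a library.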
